A study of Homo sapiens with 18 samples.

Results

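The comparison described here sets LNCaP cells rescued with HOXB13 3A, a form in which 3 phosphorylation sites (threonine 8, serine 31 and threonine 41) are changed to alanine, against LNCaP cells rescued with wild-type HOXB13 (WT), both treated with the synthetic androgen R1881. It takes all libraries of those groups, 3 labelled 3A and 3 labelled WT, which are 6 of the 18 libraries of the series, and tests every gene with enough counts. LNCaP is an established, androgen-responsive human prostate cancer cell line. In every group, controls included, endogenous HOXB13 was targeted by a short hairpin RNA, and WT, 3A or empty vector (EV) was expressed from an inducible rescue construct. Cells were deprived of androgen for 48 h in RPMI medium with 2% charcoal-stripped serum and then given 10 nM R1881 for 24 h or 0.1% ethanol as the vehicle, in triplicate. The 3 EV libraries with R1881 and the 6 WT and 3A libraries in vehicle are used beside the main comparison. EV means in vehicle are given for HOXB13 and BVES only. The question in the series title is how phosphorylation of HOXB13 by the kinase mTOR bears on its activity.

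HOXB13 is a homeobox transcription factor of the posterior HOX group and marks the prostate lineage. It binds DNA together with cofactors of the TALE family such as the MEIS proteins, and it is studied for its part in the androgen response of prostate cells. mTOR is a kinase that ties cell growth to amino acid supply. ATF4, a transcription factor whose translation is raised when amino acids are short or the endoplasmic reticulum (ER) is stressed, is also raised by mTOR complex activity, and it switches on amino acid transporters, serine synthesis and tRNA synthetases.

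The 6 R1881 libraries held 23488198 to 29452311 counts each, and libraries of 1 group differed beyond sampling noise. Their first principal component (37.4% of variance) separated 3A from WT, and the second (24.7%) set library 1 of both groups apart from libraries 2 and 3, and counts with only libraries 2 and 3 of each group, a set chosen after seeing this, are given beside the results.

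HOXB13 itself (ENSG00000159184, chromosome 17, 48724763 to 48729178, minus strand, hg38) was read first. Its RNA stood at 358, 317 and 366 CPM (counts scaled to library size and composition) in WT libraries 1, 2 and 3, and at 578, 506 and 436 CPM in 3A libraries 1, 2 and 3. All 3 libraries labelled 3A were above all 3 labelled WT. The log2 fold change was 0.55 ± 0.11 (± standard error, as throughout; edgeR adjusted p = 0.00595), and the call was lost without WT library 2, at 0.48. The EV libraries, at 421, 405 and 424 CPM, lay between the WT and the 3A libraries. In vehicle the HOXB13 means were 536 CPM in WT, 759 CPM in 3A and 533 CPM in EV. There 3A was above WT too, by 0.50 ± 0.11 on the log2 scale (edgeR adjusted p = 0.00807), and WT was near EV. Gene counts cannot separate RNA of the endogenous gene, which the hairpin targets, from rescue RNA, nor WT from 3A RNA, so knockdown and rescue cannot be checked in these counts and the groups are named by their labels.

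With R1881, 242 genes were higher in 3A than in WT (1.41% of the 17162 genes tested) and 303 were lower (1.77%), 545 in all (3.18%) at an adjusted p under 0.05 in edgeR's quasi-likelihood test. A gene that passed is said below to have risen or fallen, always for 3A against WT. Among those that passed, 48 rose and 112 fell by more than 2-fold, and the median absolute log2 fold change was 0.71. The 3A and WT libraries did not overlap for 3279 of the 17162 genes tested and for 536 of the 545 called, a number that the call itself largely fixes. With the replicate number as a block in the fit of all 18 libraries, 511 genes were higher and 535 lower. With only libraries 2 and 3 of each group 112 were higher and 203 lower. Without WT library 2 the counts were 108 higher and 190 lower, and without WT library 3, 3A library 1 or 3A library 2 the higher genes numbered 139, 161 and 150. A call that held without any 1 of the 6 libraries was seen for 73 of the higher and 140 of the lower genes. Since no label ties replicates to separate cultures, the p-values cover just the scatter among these 6 libraries and the rest of the fit, and that scatter may be technical.

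Of the 10 largest falls 9 are described in 2 groups by their level beside the EV libraries, and HRK apart. In the first group, RNA was high in WT and lower in both EV and 3A. BVES, a cAMP-binding membrane protein of the Popeye family, stood at 12, 11.4 and 14.5 CPM in WT, 1.51, 2.08 and 3.50 CPM in 3A and 1.89, 2.88 and 2.28 CPM in EV. It fell by 2.40 ± 0.27 on the log2 scale (edgeR adjusted p = 2.42e-05), with 3A at the EV level with R1881. In vehicle 3A lay above EV, with BVES means of 91.1 CPM in WT, 18.6 CPM in 3A and 2.39 CPM in EV. OR51E2, an olfactory receptor of prostate epithelium, was at 6.0, 9.51 and 9.27 CPM in WT and 0.797, 2.29 and 1.91 CPM in 3A, against 1.31, 0.314 and 0.373 CPM in EV. Its log2 fold change was -2.28 ± 0.44 (edgeR adjusted p = 0.00441). GRIK1, a kainate glutamate receptor subunit, was at 4.47, 5.15 and 6.94 CPM in WT and 0.797, 1.18 and 1.48 CPM in 3A, with EV at 0.677, 0.180 and 0.792 CPM (-2.24 ± 0.37 for 3A against WT, edgeR adjusted p = 0.00111). AOC1, the diamine oxidase that degrades histamine and putrescine, was at 4.14, 4.13 and 4.99 CPM in WT and 1.46, 1.01 and 0.830 CPM in 3A, with EV at 0.226, 0.449 and 0.466 CPM. It fell by 2.02 ± 0.33 (edgeR adjusted p = 0.000945). For OR51E2, GRIK1 and AOC1 the log2 values against EV were 3.62, 3.32 and 3.52 in WT and 1.34, 1.08 and 1.51 in 3A. In edgeR 3A against EV passed for AOC1 (adjusted p = 0.0327) and not for OR51E2 (0.147), whose libraries overlapped, or GRIK1 (0.157). Both EV comparisons share libraries with the main one and are given only as values.

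In the second group, WT was near EV and 3A lay below both. BCL11B, a zinc finger transcription factor best known in T cells, stood at 5.63, 4.64 and 4.40 CPM in WT, 4.15, 3.19 and 5.59 CPM in EV and 1.06, 0.903 and 0.469 CPM in 3A, the largest fall of the comparison among genes that met the naming rule (-2.60 ± 0.32, edgeR adjusted p = 5.31e-05). CD55, the complement decay-accelerating factor of the cell surface, was at 10.2, 12.9 and 9.05 CPM in WT, 10.3, 8.18 and 7.08 CPM in EV and 2.70, 2.47 and 2.20 CPM in 3A, with the smallest standard error of the 10 falls (-2.13 ± 0.19, edgeR adjusted p = 2.13e-06). DMGDH, a mitochondrial enzyme of choline breakdown, was at 4.51, 4.68 and 6.26 CPM in WT and 1.77, 0.660 and 1.08 CPM in 3A (-2.16 ± 0.30, edgeR adjusted p = 0.000218). The log2 values of 3A against EV were -2.42 for BCL11B, -1.80 for CD55 and -2.19 for DMGDH, and those of WT against EV were 0.18, 0.33 and -0.03. The kinase gene STK32A (-1.88 ± 0.32) and PDE2A (-1.82 ± 0.29), a phosphodiesterase of cyclic nucleotides, fell as well. Against EV, 3A was at -1.39 for STK32A and -1.50 for PDE2A, and WT at 0.49 and 0.32. The BH3-only cell death gene HRK (-1.83 ± 0.28) was at 2.15, 2.28 and 2.50 CPM in WT, 1.76, 1.53 and 0.745 CPM in EV and 0.620, 0.660 and 0.650 CPM in 3A, so that EV lay between the others.

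**Figure D1:**
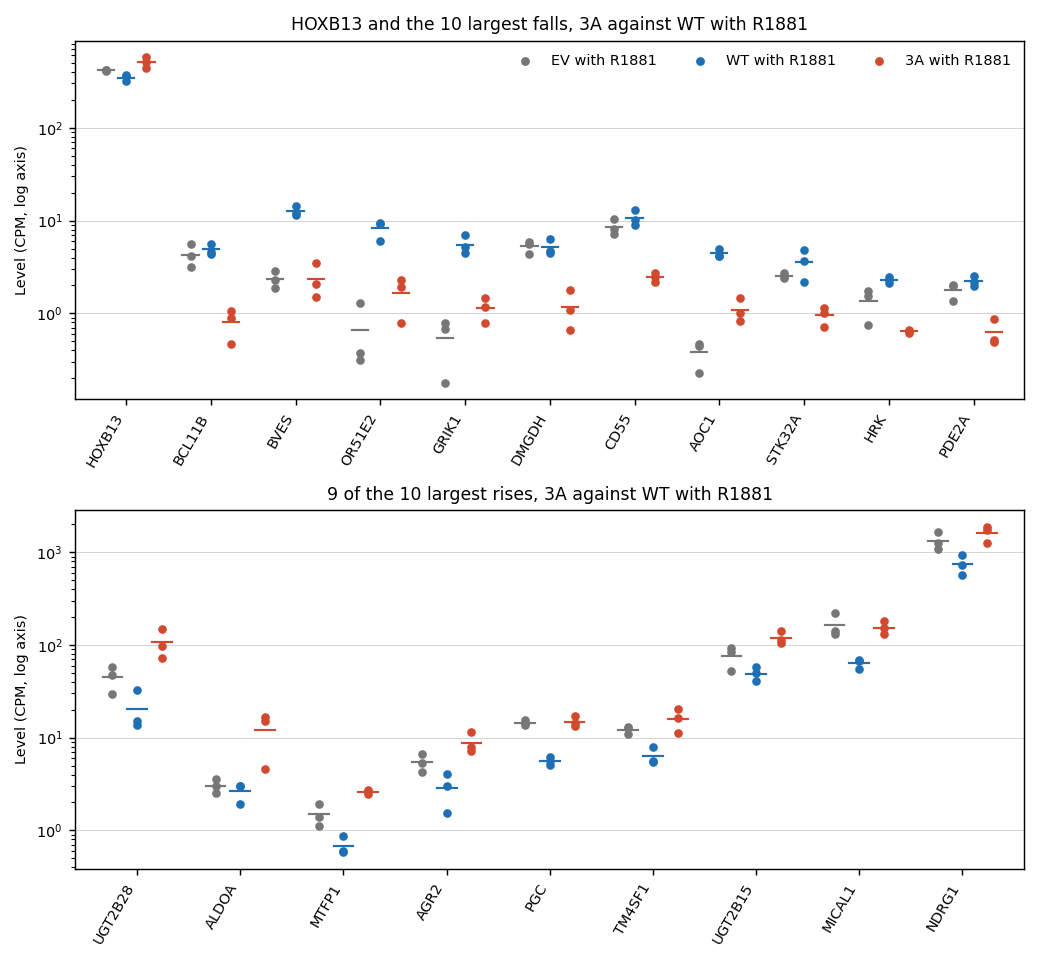
Level of HOXB13, the 10 largest falls (top) and 9 of the 10 largest rises (bottom) in CPM on a log axis, 1 point per library with R1881 and a bar at the group mean of EV, WT and 3A. For BVES, OR51E2, GRIK1 and AOC1 the EV and 3A points lie below WT, for BCL11B, DMGDH and CD55 the 3A points lie below both others, and for all 9 rises shown the WT mean is the lowest of the 3 groups.

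The largest rises held genes of steroid conjugation and secretion. UGT2B28, a glucuronosyltransferase of steroids, stood at 32.7, 15 and 13.8 CPM in WT and 149.6, 98.1 and 72.4 CPM in 3A, with EV at 29.8, 58.5 and 47.2 CPM (2.38 ± 0.33, edgeR adjusted p = 0.000187). UGT2B15, which conjugates dihydrotestosterone, went from 57.3, 49.3 and 40.5 CPM in WT to 142, 105 and 114 CPM in 3A (1.29 ± 0.25, edgeR adjusted p = 0.00388). The UGT2B genes are near-identical copies, so how reads were shared among them is uncertain. AGR2, a disulfide isomerase of the secretory pathway, was at 4.10, 2.99 and 1.52 CPM in WT and 11.5, 7.99 and 7.15 CPM in 3A (1.62 ± 0.31, edgeR adjusted p = 0.00388). PGC, the precursor of the protease gastricsin, was at 5.58, 5.11 and 6.26 CPM in WT and 17, 14.5 and 13.2 CPM in 3A, and the EV libraries, at 14.3, 13.8 and 15.5 CPM, lay among the 3A libraries (1.40 ± 0.25, edgeR adjusted p = 0.00217).

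MICAL1, an enzyme that oxidises and takes apart actin filaments, rose from 69.2, 67.1 and 55 CPM in WT to 152, 179 and 132 CPM in 3A (1.27 ± 0.19, edgeR adjusted p = 0.000359), while EV was at 133, 223 and 143 CPM. NDRG1, a gene induced by androgen and by stress, was at 934, 738 and 564 CPM in WT and 1893, 1759 and 1258 CPM in 3A (1.14 ± 0.20, edgeR adjusted p = 0.0021). TM4SF1, a membrane protein with 4 spans related to the tetraspanins, rose by 1.34 ± 0.26. For PGC, MICAL1 and TM4SF1 the log2 values of WT against EV were -1.36, -1.38 and -0.96, and those of 3A against EV were 0.04, -0.11 and 0.38. ALDOA (2.22 ± 0.43), a glycolytic aldolase, and MTFP1 (1.93 ± 0.34), a mitochondrial fission protein, are uncertain because 53.5% and 52.5% of their exon bases overlap another gene. ALDOA stood at 4.56, 16.9 and 15.2 CPM in 3A, so library 1 lay far below libraries 2 and 3, and at 1.90, 2.99 and 3.0 CPM in WT.

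The 545 genes were then read by 26 lists of genes with a shared role, each described by how many of its tested members rose or fell and by the median log2 fold change of all its tested members. Over all genes tested the median was -0.01, and the background shares are those given above, 1.41% higher and 1.77% lower. No set test was run. With only libraries 2 and 3 of each group, edgeR called 19 ATF4 genes lower and 5 mitotic genes higher, against 26 and 18 with all libraries. ER folding genes went from 6 higher to 0, cholesterol genes from 4 to 2, G1 genes from 2 to 0 and androgen-induced genes from 7 to 5. The single higher calls of the replication and TALE lists were lost, fatty acid genes went from 2 higher and 1 lower to 1 and 0, and luminal genes from 3 higher to 2. Ribosomal proteins gained 4 lower and nuclear respiratory chain genes had 2 lower in place of 1.

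**Figure D2:**
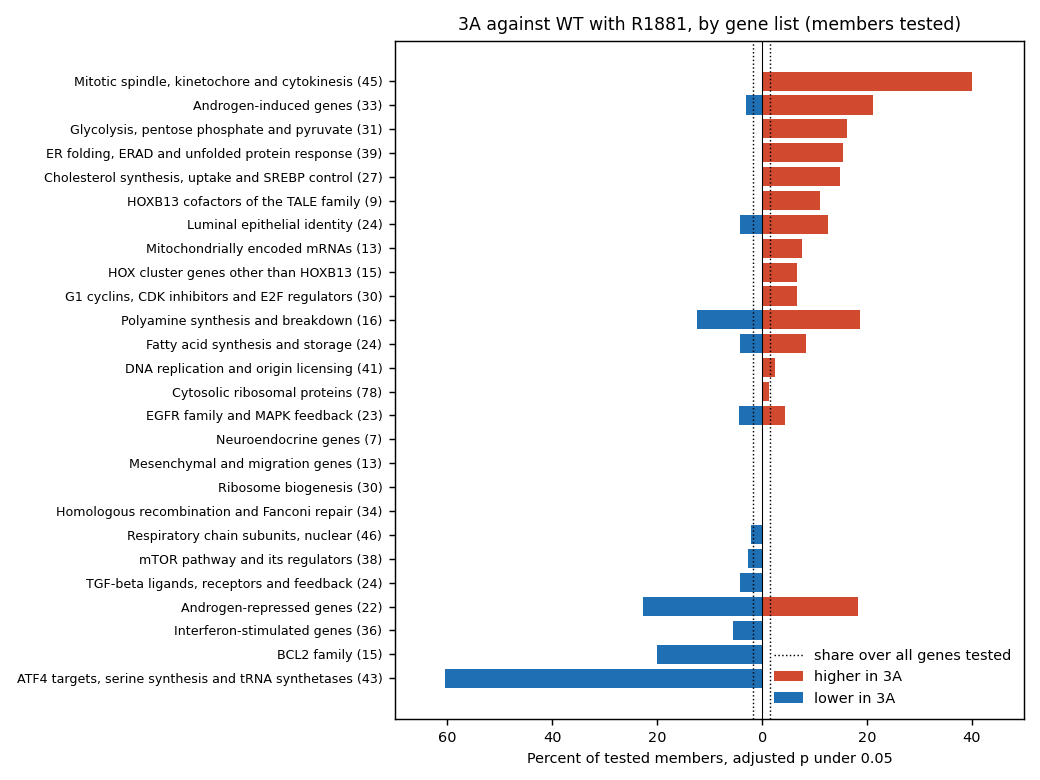
Percent of the tested members of each of the 26 gene lists that rose (to the right) or fell (to the left) in 3A against WT with R1881, with the number tested in parentheses and dotted lines at the share over all genes tested. The ATF4 list extends farthest to the left, with 26 of 43 members, and the mitotic list farthest to the right, with 18 of 45.

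ATF4 targets, serine synthesis enzymes and tRNA synthetases were lower in 3A. Of 43 members tested, 26 fell and 0 rose, and the list's median was -0.50. The count of members that fell was 32 with the replicate block and ran from 19 to 24 when any 1 library was left out. At an unadjusted p under 0.05 in edgeR, 2 members were higher and 35 lower, DESeq2 gave 1 higher and 30 lower, and the block gave 2 higher. ATF4 itself stood at 595, 545 and 711 CPM in WT and 375, 308 and 395 CPM in 3A, with no overlap (-0.78 ± 0.13, edgeR adjusted p = 0.000991). The EV libraries, at 759, 595 and 722 CPM, lay among and above the WT libraries.

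Among amino acid transporters, SLC6A9, which carries glycine, was at 61.3, 58.9 and 69.8 CPM in WT and 31, 26 and 23.8 CPM in 3A, and it had the smallest adjusted p of the list (-1.24 ± 0.10, edgeR adjusted p = 1.14e-06). SLC7A5, the light chain of the leucine transporter, fell by 1.35 ± 0.16 and SLC7A11, the cystine transporter, by 0.93 ± 0.11. Among stress regulators, TRIB3, a pseudokinase that feeds back on ATF4, was at 295, 300.5 and 371 CPM in WT and 149, 163 and 149.6 CPM in 3A (-1.06 ± 0.11, edgeR adjusted p = 9.98e-06). SESN2, a leucine-binding inhibitor of mTOR complex 1, was at 92.9, 83.7 and 104 CPM in WT and 49.5, 47.9 and 41.9 CPM in 3A (-1.01 ± 0.11, edgeR adjusted p = 2.39e-05). STC2, a secreted glycoprotein, was at 166, 152 and 179.7 CPM in WT and 80.1, 74.1 and 82.6 CPM in 3A (-1.07 ± 0.10, edgeR adjusted p = 2.13e-06). For each of these members, the highest 3A library lay below the lowest WT library.

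CHAC1, which degrades glutathione, had the list's largest fall, 1.38 ± 0.22 (edgeR adjusted p = 0.000638), from 40.6, 31.6 and 56.1 CPM in WT to 19.4, 11.6 and 18.4 CPM in 3A. The stress transcription factor DDIT3 fell by 1.24 ± 0.16, but 39.6% of its exon bases overlap another gene. In the serine branch, PSAT1 fell by 1.0 ± 0.12, PSPH by 0.47 ± 0.13 and PHGDH, which makes the first committed step, by 0.42 ± 0.11. PHGDH and PSPH lost their calls when single libraries were left out. PCK2, the mitochondrial phosphoenolpyruvate carboxykinase, fell by 0.83 ± 0.13 and CTH, which makes cysteine, by 0.88 ± 0.12. Of the tRNA synthetases, SARS (-0.55) and WARS (-0.50) kept their calls without any 1 library, whereas GARS (-0.54), CARS (-0.39), EPRS (-0.41) and YARS (-0.37) did not. ASNS, the asparagine synthetase, fell by 0.79 ± 0.18, but its call was lost without WT library 1 or 3A library 3, and 44.6% of its exon bases overlap another gene.

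Promoters of this list are shown because most of its members fell. The list was made to hold ATF4 targets, so a motif share above the background can follow from how it was made. The letters TGATGNAA, the core of the element that ATF4 binds, were searched on both strands from 250 bases before to 50 after each start in RefSeq's GRCh38.p14 promoters. They occurred in 12 of the 36 promoters matched to the list (33.3%), in 4 of the 23 of members that fell (17.4%), in 1.73% of the 11690 promoters of genes tested and in 3.67% of all 27305 promoters. Below, the match is in capitals and the rest in lower case, each stretch 5′ to 3′ on the gene's own strand. The CHAC1 stretch (chr15:40953227-40953304, plus strand) holds the letters on the opposite strand, starting 209 bases before the start. The ASNS stretch (chr7:97872434-97872511, minus strand) holds them on the gene's strand, 68 bases before it. The letters were less frequent in members that fell (17.4%) than over the whole list (33.3%). A match is a description of the letters and not of binding.
CHAC1: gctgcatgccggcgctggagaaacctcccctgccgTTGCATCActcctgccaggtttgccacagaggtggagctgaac
ASNS: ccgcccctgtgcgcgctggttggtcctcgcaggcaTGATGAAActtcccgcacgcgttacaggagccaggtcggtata

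**Figure D3:**
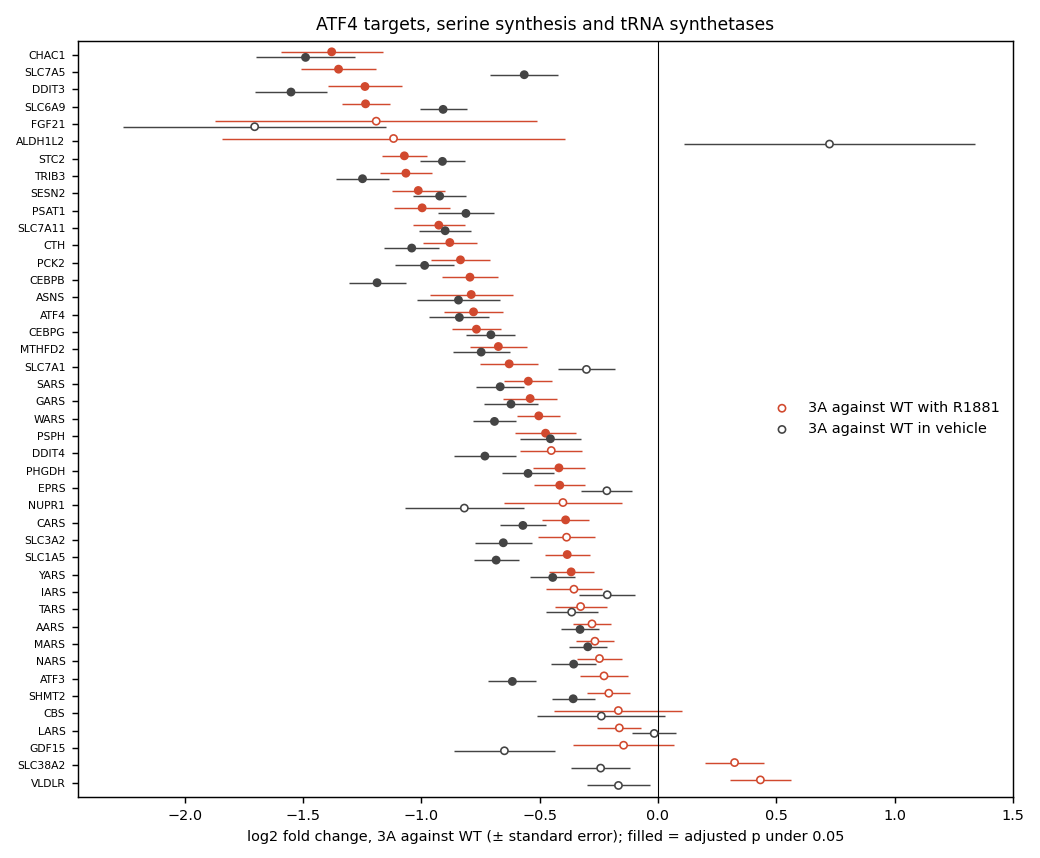
Log2 fold change ± standard error of 3A against WT for the 43 tested members of the ATF4 list, with R1881 (red) and in vehicle (grey), where filled points have an adjusted p under 0.05. With R1881 41 of 43 points lie to the left of zero, and in vehicle 42 of 43.

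In vehicle, measured in other libraries, 31 of the same 43 members were lower in 3A, with a median of -0.65. The background in vehicle was 2.64% of genes higher and 2.99% lower, 5.63% in all. TRIB3 was at -1.25 ± 0.11 (edgeR adjusted p = 1.71e-06) and STC2 at -0.91 ± 0.10 (edgeR adjusted p = 9.91e-06) there. In the test of the difference between treatments 0 members passed in edgeR and 0 in DESeq2 (5 above 0 and 2 below 0 at an unadjusted p under 0.05). Beside EV with R1881, the list's median was -0.67 in 3A and -0.13 in WT.

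Genes of the mitotic spindle, kinetochore and cytokinesis were higher in 3A. Of 45 members tested, 18 rose and 0 fell, with a median of 0.60, and all 45 log2 fold changes were above 0. At an unadjusted p under 0.05 in edgeR 41 were higher and 0 lower, and DESeq2 gave 26 higher and 0 lower. The replicate block gave 30 higher. The count was sensitive to single libraries, at 11, 5 and 10 without WT library 1, 2 or 3 and at 6 and 9 without 3A library 1 or 2. It was 5 with only libraries 2 and 3 of each group, a set chosen after seeing that library 1 of both groups stood apart.

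KIF4A, a chromosome-bound kinesin, stood at 22.9, 18.5 and 21 CPM in WT and 42.1, 35.3 and 34.6 CPM in 3A (0.84 ± 0.16, edgeR adjusted p = 0.00374). TOP2A, the topoisomerase that untangles chromosomes, was at 71.7, 70.1 and 63.6 CPM in WT and 110.0, 121 and 99.5 CPM in 3A (0.69 ± 0.14, edgeR adjusted p = 0.00629). CENPF, a kinetochore protein, was at 51.1, 44.2 and 52.4 CPM in WT and 80.7, 81.8 and 74.3 CPM in 3A (0.68 ± 0.13, edgeR adjusted p = 0.00451). CENPE, the kinetochore kinesin, was at 17.8, 14.3 and 15.4 CPM in WT and 29.7, 27.2 and 25.4 CPM in 3A (0.79 ± 0.16, edgeR adjusted p = 0.006). In all 4 genes the 3A libraries lay above the WT libraries, and the calls held without any 1 library. The EV libraries were lower than both, at 15.7, 13 and 15.7 CPM for KIF4A and 48.3, 32.4 and 38.5 CPM for TOP2A. The list's median against EV was 0.64 in WT and 1.29 in 3A. The mitotic kinase CDK1 (0.63), the anaphase activator CDC20 (0.80), the kinase PLK1 (0.82), the spindle factor TPX2 (0.70) and the kinesin KIF11 (0.56) rose too, each with a call that was lost without WT library 2.

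In vehicle 37 of the 45 mitotic genes were higher in 3A, with a median of 0.87. DNA replication and licensing genes had fewer calls with R1881 than in vehicle. With R1881, 1 of 41 rose (LIG1, the replicative DNA ligase, 0.71 ± 0.17, edgeR adjusted p = 0.02) and the median was 0.29, while in vehicle 30 of 41 were higher and the median was 0.67. LIG1 lost its call without WT library 1 or 2 or 3A library 1 or 2, and the block gave 8 higher. Of 41 replication genes 40 had a log2 fold change above 0 in each treatment. In the test of the difference between treatments 0 replication genes passed in edgeR and 2 in DESeq2, both below 0 (19 below 0 and 0 above at an unadjusted p under 0.05). The G1 cyclin and CDK inhibitor list had 2 of 30 higher, CCNA2 (0.67 ± 0.15), the S and G2 phase cyclin, and CDKN2C (0.89 ± 0.19), an inhibitor of CDK4 and CDK6, neither of which held without WT library 2 or 3A library 1. The block gave 4 higher. Homologous recombination and Fanconi repair genes had 0 of 34 called in edgeR (9 higher and 0 lower at an unadjusted p under 0.05, 2 higher in DESeq2, 5 higher with the block), with a median of 0.22.

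**Figure D4:**
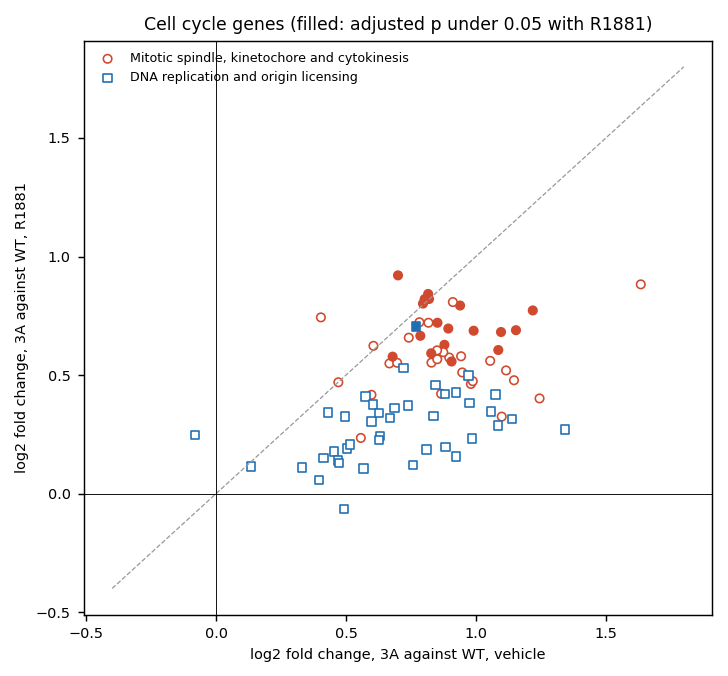
Log2 fold change of 3A against WT with R1881 (vertical) against that in vehicle (horizontal) for 45 mitotic genes (circles) and 41 DNA replication genes (squares), where filled symbols have an adjusted p under 0.05 with R1881 and the dashed line marks equal values. The mitotic genes lie higher on the vertical axis, with a median of 0.60 against 0.29 for the replication genes, and 38 of the 45 and 40 of the 41 lie below the dashed line.

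Mitotic promoters were searched for the CCAAT box (CCAAT) and the cell cycle homology region (CHR, TTTGAA), on both strands and without regard to overlap, a pair of elements known from genes of late cell cycle. Both were present in 24 of the 37 promoters matched to the list (64.9%) and in 14 of the 15 of members that rose (93.3%), against 4.09% of promoters of genes tested and 6.08% of all promoters. The E2F letters TTTCCCGC or TTTGGCGC occurred in 17 of 35 replication promoters (48.6%), against 3.64% of those of genes tested and 2.31% of all. The stretches below show the pair before the start of 3 genes that rose, with both motifs in capitals on either strand. They are from KIF4A (chrX:70290011-70290103, plus strand), TOP2A (chr17:40418007-40418091, minus strand) and KIF11 (chr10:92593042-92593129, plus strand), each 5′ to 3′ on the gene's strand.
KIF4A: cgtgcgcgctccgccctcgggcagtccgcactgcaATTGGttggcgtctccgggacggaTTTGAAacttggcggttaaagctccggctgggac
TOP2A: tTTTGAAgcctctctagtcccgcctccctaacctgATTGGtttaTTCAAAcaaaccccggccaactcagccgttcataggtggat
KIF11: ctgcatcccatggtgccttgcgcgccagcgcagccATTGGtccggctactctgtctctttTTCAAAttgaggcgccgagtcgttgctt
Letters of the HOXB13 site, CCAATAAA or CTCGTAAA, were in 1.13% of the 177 matched promoters of higher genes and 0.870% of the 230 of lower genes, against 0.804% for genes tested and 1.10% of all. These windows hold no distant enhancers.

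Androgen-regulated genes moved in both directions. Of 33 androgen-induced genes tested, 7 rose and 1 fell, with a median of 0.25. With the block 11 rose, and without WT library 3 the count was 4. FKBP5, a co-chaperone of steroid receptors, stood at 1297, 1136 and 996 CPM in WT and 1915, 1833 and 1677 CPM in 3A (0.66 ± 0.11, edgeR adjusted p = 0.00113), and EV, at 1755, 1898 and 1666 CPM, lay at the 3A level. GNMT, the glycine methyltransferase, was at 35.8, 27.4 and 35.6 CPM in WT and 84.7, 58.8 and 58.3 CPM in 3A (1.03 ± 0.15, edgeR adjusted p = 0.000359). ACSL3, an acyl-CoA synthetase, was at 1072, 914 and 724 CPM in WT and 1702, 1549 and 1374 CPM in 3A (0.77 ± 0.13, edgeR adjusted p = 0.00152). NDRG1 was given above, and STEAP4 (0.75), ELL2 (0.56) and CENPN (0.52) rose with calls that single libraries ended. ACPP, prostatic acid phosphatase, fell by 0.70 ± 0.13 (edgeR adjusted p = 0.00244), from 65.6, 65.3 and 69.6 CPM in WT to 36.1, 41.8 and 45.3 CPM in 3A. The list's median against EV was -0.28 in WT and 0.08 in 3A.

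Of 22 androgen-repressed genes, 4 rose and 5 fell, with a median of -0.15. The list's name is not borne out for each member in these libraries. With R1881 against vehicle in WT, UGT2B28 was higher by 4.01, UGT2B11 by 2.01 and TMEFF2 by 1.39 on the log2 scale, whereas UGT2B15 was at -2.90 and UGT2B10 at -1.44. The 4 that rose in 3A against WT were all UGT2B genes, UGT2B28 and UGT2B15 above with UGT2B11 (2.21) and UGT2B10 (1.90). The last 2 had no call when WT library 2 or 3 was left out. Without 3A library 1 the list had 3 higher and 5 lower. ACKR3, a scavenging chemokine receptor, was at 76.6, 69.3 and 79.2 CPM in WT and 38, 39.9 and 38.4 CPM in 3A, with EV at 42.2, 33.2 and 36.9 CPM (-0.95 ± 0.10, edgeR adjusted p = 7.24e-06). GRB10, an adaptor that restrains insulin receptor signalling, was at 265, 236 and 256 CPM in WT and 158, 154 and 161 CPM in 3A (-0.68 ± 0.09, edgeR adjusted p = 0.000187). BCHE, butyrylcholinesterase, fell by 0.95 ± 0.17 (edgeR adjusted p = 0.00217). TMEFF2 (-0.57) and the opioid receptor OPRK1 (-1.25) fell with calls that were lost without WT library 2, when the list had 2 higher and 3 lower, and without WT library 3 it had 2 higher and 5 lower. With the block 8 fell.

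Luminal keratins and polyamine enzymes were among the lists with several calls. Of 24 luminal epithelial genes 3 rose and 1 fell, with a median of -0.01. KRT8, a keratin of luminal cells, was at 1194, 1005 and 1063 CPM in WT, 2340.3, 1954 and 1880.5 CPM in 3A and 1839.5, 2340.2 and 2105 CPM in EV (0.92 ± 0.11, edgeR adjusted p = 6.14e-05). Its partner KRT18 rose by 0.68 ± 0.13 (edgeR adjusted p = 0.00445, with 16.3% of exon bases shared). SPDEF, an ETS factor of luminal prostate cells, was at 238, 250.03 and 264 CPM in WT and 430.4, 468 and 439 CPM in 3A (0.83 ± 0.10, edgeR adjusted p = 5.31e-05). ESRP1, an epithelial splicing regulator, fell by 0.65 ± 0.09 (edgeR adjusted p = 0.000218). Of 16 polyamine genes 3 rose and 2 fell, with a median of 0.06. ODC1, the first enzyme of polyamine synthesis, was at 1202, 1249 and 1099 CPM in WT and 2000.0, 1926 and 1879.7 CPM in 3A (0.71 ± 0.09, edgeR adjusted p = 9.49e-05). Spermine synthase, SMS, rose by 0.91 ± 0.13 and SAT1, which acetylates spermidine and spermine for breakdown, by 0.63 ± 0.11. AOC1 above and ARG2 (-0.83, with 37.4% of exon bases shared), an arginase, fell.

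Glycolysis, cholesterol and fatty acid lists had medians above 0. Of 31 glycolysis and pentose phosphate genes 5 rose and 0 fell, with a median of 0.22, and the count was 3 without WT library 1 or 3 or 3A library 2 or 3. At an unadjusted p under 0.05 in edgeR 13 were higher and 2 lower. DESeq2 gave 8 higher and 1 lower, and the block 10 higher and 1 lower. SLC2A3, a glucose transporter, was at 16.6, 14.2 and 12.1 CPM in WT and 31.8, 29.4 and 26.5 CPM in 3A (1.03 ± 0.16, edgeR adjusted p = 0.000991). PGK1, phosphoglycerate kinase, rose by 0.57 ± 0.10 (edgeR adjusted p = 0.00241), and PKM (0.36) and LDHA (0.54) rose with calls that single libraries ended. ALDOA, also among the 5, is uncertain as described above, with 53.5% of its exon bases shared. Of 27 cholesterol genes 4 rose (7 with the block), with a median of 0.19. SCAP, the escort of the sterol-sensing transcription factors, was at 383, 319.8 and 339.6 CPM in WT and 567, 518 and 485 CPM in 3A (0.59 ± 0.09, edgeR adjusted p = 0.000492). FDFT1, squalene synthase, rose by 0.60 ± 0.10 (edgeR adjusted p = 0.0017). FDPS (0.49) and ACAT2 (0.41) lost their calls without WT library 1 or 3 or 3A library 3, and 52.3% of ACAT2 exon bases are shared. Of 24 fatty acid genes 2 rose (4 with the block), ACSL3 above and the desaturase FADS2 (0.57), and 1 fell, DGAT2 (-0.43), which makes triglyceride, and FADS2 and DGAT2 did not keep their calls without 3A library 2.

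ER folding genes rose in 6 of 39 members, with a median of 0.18, but the count was between 0 and 2 when any 1 of the 6 libraries was left out. The block gave 7 higher and 3 lower. The 6 were the secreted stress factor MANF (0.48 ± 0.10, edgeR adjusted p = 0.00957), the transcription factor CREB3L4 (0.53) and the chaperones HSP90B1 (0.37), CALR (0.31), HSPA5 (0.34) and P4HB (0.29). In vehicle 1 of the 39 was higher and 4 were lower, and 0 passed the edgeR test of the difference between treatments (10 above 0 and 0 below at an unadjusted p under 0.05, 2 above 0 in DESeq2). BCL2 family genes had 3 of 15 lower, all BH3-only death genes, with a median of 0.03. These were HRK above, PMAIP1 (-0.81 ± 0.15, edgeR adjusted p = 0.00244) at 32.4, 34.6 and 32.8 CPM in WT and 18.4, 15.7 and 22.9 CPM in 3A, and BBC3 (-0.62), whose call was lost without any 1 library except WT library 1.

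Among HOX and TALE genes, MEIS1, a DNA-binding partner of HOXB13, was the 1 member of 9 TALE genes that rose. It stood at 9.02, 7.86 and 8.59 CPM in WT and 15.9, 15.3 and 13.6 CPM in 3A (0.82 ± 0.18, edgeR adjusted p = 0.0112), and its call was lost without WT library 2. Of 15 other HOX genes 1 passed, HOXB7, at 0.165, 0.0393 and 0.0423 CPM in WT and 0.487, 0.451 and 1.26 CPM in 3A, a few reads per library, so no fold is given. With the block 1 TALE and 1 other HOX gene were also lower. Of 38 genes of the mTOR pathway 1 fell, SESN2 above (2 with the block), and the median was 0.00. ERRFI1, a feedback inhibitor of the EGF receptor, rose (0.73 ± 0.10, edgeR adjusted p = 0.000228) and the phosphatase gene PTPRR (-0.73) fell among 23 EGFR and MAPK feedback genes. The PTPRR call was lost without WT library 1 or 3A library 3, and with only libraries 2 and 3 of each group. INHBB, an activin subunit, fell by 1.05 ± 0.19 (edgeR adjusted p = 0.00232), the 1 call among 24 TGF-beta genes (4 lower with the block).

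The remaining lists held few calls. Of 36 interferon-stimulated genes 2 fell, IFI35 (-0.70) and IFIT2 (-1.08). Neither call held without WT library 1, 2 or 3 or 3A library 3, or in a fit of only the groups compared. Of 30 ribosome biogenesis, 13 mesenchymal and 7 neuroendocrine genes, 0 were called in edgeR and 0 in DESeq2 (1 lower, 1 lower and 1 higher at an unadjusted p under 0.05). RPS23 (0.79) was the 1 call among 78 ribosomal proteins, COX6A1 (-0.77) among 46 nuclear respiratory chain genes and MT-ATP8 (1.38) among 13 mitochondrial mRNAs (4 higher with the block). RPS23 lost its call without WT library 1 or 2 or 3A library 3, COX6A1 without WT library 1 or 3 or 3A library 2 or 3, and MT-ATP8 without any 1 library except 3A library 1. Without 3A library 1, 3 ribosomal proteins and 2 respiratory chain genes were lower. Library 1 of 3A stood apart for these genes, at 68, 35.2 and 32.9 CPM for COX6A1 and 4.47, 13.3 and 16.8 CPM for MT-ATP8 in 3A libraries 1, 2 and 3. Of the 28 processed pseudogenes called, 20 were higher and 8 lower, out of 633 tested with a median of -0.05.

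The same contrast in vehicle called 453 genes higher and 514 lower. Of the 242 genes higher with R1881, 80 were also higher in vehicle (33.1%, and 17.7% of the 453), and of the 303 lower with R1881, 129 were also lower (42.6%, and 25.1% of the 514). Across the 17162 genes the log2 fold changes with R1881 and in vehicle had a Pearson r of 0.33, a description since genes are not independent replicates. Genes that rose with R1881 had a median of 0.63 there and 0.32 in vehicle, and those that fell had -0.79 and -0.48. CD55 (-2.36 ± 0.17), BVES (-2.29 ± 0.23) and DMGDH (-2.07 ± 0.28) were lower in vehicle too. Of the other large falls, BCL11B (-1.49), OR51E2 (-2.09), GRIK1 (-1.41), AOC1 (-1.67) and PDE2A (-1.61) were also called lower there. STK32A (-0.79) and HRK (-0.40) had no call in vehicle. For MICAL1 (0.13 ± 0.20) and SPDEF (0.30 ± 0.10) vehicle gave no call. The difference between treatments was tested itself, and neither MICAL1 (edgeR adjusted p = 0.142) nor SPDEF passed.

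That test takes the 3A to WT log2 fold change with R1881 minus that in vehicle, a signed value that does not tell in which treatment the groups lay farther apart. It was above 0 for 7 called genes (0.0408% of genes tested) and below 0 for 3 (0.0175%), 10 in all (0.0583%). Of the 7 genes 2 were higher in 3A with R1881 and lower in vehicle. ERRFI1 was at 45.2, 47.2 and 48.3 CPM in WT and 35, 38.2 and 35.6 CPM in 3A in vehicle, against 319.8, 289.8 and 239 and 463, 494 and 451 CPM with R1881, a difference of differences of 1.10 ± 0.15 (edgeR adjusted p = 0.00478). GADD45G, a growth arrest gene, was higher in 3A with R1881 (0.51 ± 0.13) and lower in vehicle (-0.61 ± 0.14), although its R1881 call was lost without any 1 library but 3A library 2. ODC1 was at 607, 629.9 and 677 CPM in WT and 609, 591 and 518 CPM in 3A in vehicle, where the groups overlapped, and did not overlap with R1881 (0.87 ± 0.13, edgeR adjusted p = 0.01). KRT8 likewise overlapped in vehicle, at 546, 556 and 661 CPM in WT and 569, 637 and 616 CPM in 3A (0.87 ± 0.16, edgeR adjusted p = 0.0456).

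NUCB2, a calcium-binding protein, and BCAP29, an ER membrane protein, had differences of differences of 1.13 ± 0.17 and 0.94 ± 0.15 on the log2 scale. They were lower in 3A in vehicle (-1.0 ± 0.12 and -0.75 ± 0.11) and had no call with R1881. ACKR3 (-0.72 ± 0.13, edgeR adjusted p = 0.0456) and CCDC80 (-2.17 ± 0.40, edgeR adjusted p = 0.0456), a secreted matrix protein, fell with R1881 and had no call in vehicle. CCDC80 was at 0.910, 0.983 and 1.06 CPM in WT and 0.177, 0.174 and 0.144 CPM in 3A with R1881, and at 5.16, 3.77 and 4.48 and 3.36, 2.99 and 4.0 CPM in vehicle. Its 3A values with R1881 rest on a few reads per library, so the size of the CCDC80 difference is uncertain. SLC29A1, a nucleoside transporter, was higher in 3A in vehicle (0.83 ± 0.12) and not called with R1881, a difference of differences of -0.97 ± 0.16. The number of such genes moved with the method, and is given with the processing alternatives.

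**Figure D5:**
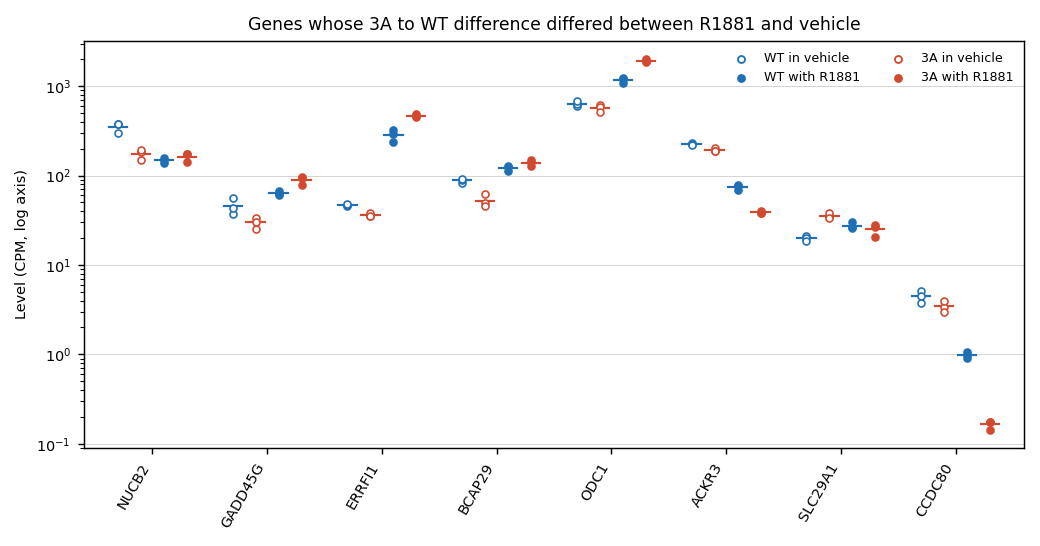
Level in CPM on a log axis of 8 genes whose 3A to WT difference differed between treatments, 1 point per library and a bar at the group mean, open for vehicle and filled for R1881, WT in blue and 3A in red. ERRFI1 and GADD45G are lower in 3A in vehicle and higher with R1881. CCDC80 separates WT from 3A by more with R1881, where its 3A points rest on a few reads per library.

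Mitochondrial RNA took 2.71% to 4.77% of counts in WT and 3.06% to 5.15% in 3A. The 11 markers of a luminal prostate line summed to 9495 to 10311 CPM in WT and 11665 to 12167 CPM in 3A, with 3 called higher (HOXB13, KRT8 and KRT18). Immune markers summed to at most 0.289 CPM, with 3 of 6 at 0 in all 6 libraries, PTPRC and CD3E among them. Fibroblast markers summed to 14.2 to 20.8 CPM with 1 of 8 at 0 (THY1). Endothelial markers summed to 4.07 to 6.90 CPM with 2 of 6 at 0 (PECAM1 and CDH5). Neural markers summed to 33.6 to 48.2 CPM with 1 of 5 at 0 (SNAP25). The remaining markers of these lists had reads in at least 1 library. Basal markers summed to 21.0 to 23.1 CPM in WT and 12.3 to 16.8 CPM in 3A, with 2 of 6 at 0 (TP63 and KRT17). Of the basal markers, 0 of 2 tested members were called in edgeR (0 higher and 2 lower at an unadjusted p under 0.05, 1 lower in DESeq2 and with the block). The part of other cell types in the results was not tested.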

How the data were processed

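RNA-seq was done on total RNA from 18 LNCaP libraries, paired-end and with a NEBNext Ultra II kit per the labels' protocols. The deposited values used here are counts, unnormalised and whole, for 58735 genes. HISAT2 2.0.5, featureCounts 1.5.0-p3 and hg38 are named in the submitters' processing notes. The annotation release, strand setting and treatment of reads that map to several places were not given in the sources used here, so overlapping genes and near-identical copies are reported as uncertain. Overlaps were computed from GENCODE 29, which holds all 58735 identifiers. A table of FPKM values was not used here.

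Groups come from the sample labels. Counts were fitted with edgeR 4.0.16 in R 4.3.3 (filterByExpr with a minimum count of 10 and total of 15, TMM, glmQLFit, 1 coefficient per group over all 18 libraries, 12 residual degrees of freedom). Benjamini-Hochberg adjustment ran over the 17162 genes tested, and standard errors come from the F statistic. Precision is limited by having 3 libraries a group, with the spread estimated over all 18 libraries, and the labels name no molecular identifiers. The code was tested on simulated data. Alternatives were RLE scaling, DESeq2 1.42.0, 2 other filters (none beyond 1 count, and 1 CPM in 3 libraries), a fit of only the groups compared, the replicate number as a block, and each library left out.

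The labels do not say what a replicate number stands for. Deviations of same-numbered 3A and WT libraries with R1881 correlated at 0.40, 0.25 and 0.14. All were above 0.1, so the numbers were taken, from the data and not from the labels, to pair these libraries. The pair numbered 3 is not settled by this, since 3A library 3 correlated at 0.17 with WT library 2. The main fit held no replicate term, and its counts and p-values do not use the pairing. The replicate block is given as an alternative.

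The comparison, the gene lists and the rule for named genes were chosen with earlier results of these data known. The rule took HOXB13 and the 10 rises and 10 falls of greatest size in protein-coding genes that were called, averaged 1 CPM or more, did not overlap between the groups and kept the call without any 1 library (65 rises and 116 falls qualified), up to 4 called members of each list with the smallest adjusted p, and up to 5 genes a direction for the difference between treatments. Other list members were named after their values were seen. A few genes and 1 list are not reported here.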

Additional observations from a re-analysis of the deposited data

Results flagged for a closer look

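These 8 genes are listed because the 3A to WT difference with R1881 differed from that in vehicle by edgeR's interaction test. The differences of log2 fold changes (R1881 minus vehicle) were 1.10 for ERRFI1, 0.87 for ODC1, 1.13 for NUCB2, 0.945 for BCAP29 and 1.11 for GADD45G, and -0.97 for SLC29A1, -2.17 for CCDC80 and -0.72 for ACKR3. NUCB2, BCAP29 and SLC29A1 were called in vehicle and not with R1881, whereas ODC1, CCDC80 and ACKR3 were called with R1881 and not in vehicle. ERRFI1 and GADD45G were called in each, higher in 3A with R1881 and lower in vehicle. The size for CCDC80 is uncertain, since its 3A values with R1881 rest on a few reads per library.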

How the results depend on the processing

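Against 242 higher and 303 lower genes with R1881, DESeq2 gave 438 higher, no low-count filter 416 higher and the replicate block 511 higher and 535 lower. Added after seeing the data, libraries 2 and 3 alone gave 112 higher, and the replicate block fitted to only the groups compared gave 705 higher and 571 lower. Leaving out 1 library gave 108 to 180 higher and 190 to 280 lower. HOXB13 kept its direction under every alternative run but lost its call with libraries 2 and 3 alone (0.46) and without WT R1881 library 2, at 0.44 to 0.64 over the libraries left out. The cause was not tested.

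In vehicle, where the same-numbered correlations were 0.32, 0.14 and 0.08, the numbers were not taken to pair the samples. The replicate block gave 828 higher and 904 lower against 453 and 514, a fit of only the groups compared gave 262 and 265, and leaving out 1 library gave 218 to 641 higher and 248 to 654 lower (277 and 282 without WT vehicle library 2, 218 and 254 without 3A vehicle library 2, 248 lower without 3A vehicle library 3). In the test of the difference between treatments, against 7 values above 0 and 3 below 0 (R1881 minus vehicle), DESeq2 gave 49 and 29, no low-count filter 72 and 106, the replicate block 51 and 45, a fit of only the groups compared 2 and 0, and leaving out 1 library gave 2 to 17 and 0 to 10, with the most without WT vehicle library 1. The zero counts are at an adjusted p under 0.05 in edgeR, where 1642 genes had an unadjusted p under 0.05 with all libraries. The other alternatives run left these counts within 1.5 times. For fold changes of named genes and counts of list members, 1241 values stayed on the same side of the threshold or within 1.5 times, 50 rose past it, 224 fell below it and 0 changed direction. List medians near 0 were not among these, and some changed sign, such as that of HOX genes (-0.05 to 0.12 with only the groups compared), TALE genes (0.02 to -0.04 without 3A library 2) and interferon genes (0.03 to -0.04 with libraries 2 and 3 alone). The replicate block ended no call of a gene named with R1881. At the depth of these libraries, genes with a few reads gave no usable fold, as for HOXB7, or an uncertain one, as for CCDC80.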
